A study of Mus musculus with 12 samples.

Results

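Cytosolic ribosomal protein genes were followed across 12 mouse heart libraries. The members were all rows whose symbol begins with Rps, Rpl or Rplp and a digit, without the Rps6k kinase genes and without symbols marked -ps, and with a mean of at least 10 reads per library. This gave 83 genes of the 17379 in the table, 32 with an Rps symbol (small subunit) and 51 with an Rpl or Rplp symbol (large subunit). Of 98 symbols that matched, 10 were Rps6k genes, 2 were pseudogenes and 3 (Rpl39l, Rpl32l and Rps27rt) had fewer reads. The label holds for the list as a whole, with 2 exceptions: Rps19bp1 encodes a binding partner of a ribosomal protein, and Rpl7l1 a nucleolar relative of Rpl7. Conversely Rpsa and Fau encode ribosomal proteins but have other symbols, so they were described beside the members.

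All mice were 6 months old and carried a C57BL background. Nontransgenic mice (C57BL/WT, 2 males and 1 female) were compared with mice homozygous for MYBPC3Δ25bp, a 25 bp deletion in the gene for cardiac myosin-binding protein C (2 males and 1 female). Another group was heterozygous for HRCS96A, a serine-to-alanine variant of HRC, a protein that binds calcium in the muscle cell's calcium store (3 females), and compound mice carried both alterations (3 females). The labels call the mutant mice transgenic but give neither the promoter nor the locus that carries each alteration, and they name the tissue only as heart. Sex and HRCS96A can be separated only through the other 2 groups, each of which held 1 female. The labels give each sample its own number and sex, but not whether RNA was pooled, so the p-values speak only of how these samples varied, which may be technical.

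Ribosomal proteins join ribosomal RNA to form the small subunit, which decodes mRNA, and the large subunit, which joins amino acids. Most are needed in equal amounts, and most of their mRNAs begin with a terminal oligopyrimidine (TOP) tract, a C followed by an unbroken run of C and T, through which mTORC1 signalling sets their translation. In striated muscle Rpl3 has a muscle-specific paralog, Rpl3l, and the heart is one of the few tissues that use it.

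The starts of a few members are shown because they carry or lack this tract. Each stretch runs from 30 bases before to 20 bases from the annotated start on, on the gene's strand, in RefSeq annotation of GRCm38.p6, and capitals mark the tract.
Rps27 (chr3:90213629-90213678, minus strand): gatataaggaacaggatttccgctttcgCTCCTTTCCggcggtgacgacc
Rps6 (chr4:86857348-86857397, minus strand): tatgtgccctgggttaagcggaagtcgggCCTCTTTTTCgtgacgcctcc
Rps24 (chr14:24490648-24490697, plus strand): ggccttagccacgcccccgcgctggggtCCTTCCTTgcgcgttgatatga
Rpl28 (chr7:4792935-4792984, plus strand): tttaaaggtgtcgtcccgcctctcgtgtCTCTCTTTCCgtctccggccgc
Rpl22l1 (chr3:28805478-28805527, plus strand): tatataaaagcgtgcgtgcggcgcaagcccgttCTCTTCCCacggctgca
Rpl3l (chr17:24727796-24727845, plus strand): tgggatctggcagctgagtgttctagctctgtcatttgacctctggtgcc
A tract was counted where a C followed by at least 5 bases, each C or T, began within 10 bases of an annotated start, on the gene's strand only. Among the 63 members with a promoter entry, 33 (52.4%) had one at some start, against 23.9% of 10964 tested genes with an entry. Rps27, Rps6, Rps24 and Rpl28 had it within 2 bases of the start, Rpl22l1 had it 3 bases downstream, and the stretch shown for Rpl3l holds none. No match says only that these letters are not in this window, and an annotated start can lie a few bases from the one used in the heart.

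The libraries held 15615189 to 20581196 reads. The 8 cardiac muscle markers summed to 73030 to 92750 CPM (read counts scaled to the same library total) in each of the 12, so the labelled tissue was present. Several libraries stood apart on other markers. Nontransgenic replicate 1 and MYBPC3Δ25bp replicate 2 had the highest sums of 5 red blood cell markers, 6818 and 6492 CPM, against 2359 to 4795 in the other 10. The 5 B-cell markers reached 51.7 CPM in nontransgenic replicate 2 and 82.98 in MYBPC3Δ25bp replicate 2, against 3.79 to 8.88 elsewhere. The 5 atrial muscle markers summed to 131 to 415 CPM in the compound libraries and 190.5 in HRCS96A replicate 3, against 2866 to 8800 in the other 8. The 5 fibroblast markers summed to 1319 to 1671 CPM in nontransgenic and 1859 to 1984 in MYBPC3Δ25bp libraries, to 2508, 1658 and 1249 in HRCS96A replicates 1 to 3, and to 1182 to 1423 in compound libraries. All genes of these 5 lists had reads in at least 1 library. In bulk tissue, fewer cells of a type and less RNA per cell cannot be told apart.

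Levels of different genes were compared as CPM per kilobase of effective length, which is the length implied by the deposited read counts and FPKM. In the small subunit the most abundant member was Rps2, a protein of the mRNA entry site, at 1561 ± 189 CPM per kilobase (SD, n = 12). Rps15 followed at 1116 ± 262 and Rps27 at 970 ± 191. In the large subunit Rpl41, the smallest ribosomal protein, reached 1125 ± 281 and Rpl28 863 ± 173. Neighbours in this order below Rps2 did not differ beyond their spread over libraries. The stalk proteins, which recruit the translation factors, lay at 850 ± 105 for Rplp0, 845 ± 208 for Rplp1 and 528 ± 108 for Rplp2.

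The lowest levels per kilobase belonged to the retrogene copy Rpl37rt (1.15 ± 0.89), to Rps6 (8.496 ± 3.99), to Rps19bp1 (11.7 ± 1.82), to Rpl22l1 (15.1 ± 3.65) and to Rpl7l1 (16.0 ± 0.97). Rps6 encodes the ribosomal protein that S6 kinases phosphorylate, and another row annotated as the same protein held far more reads, as described further on. Of the genes outside the symbol rule, Rpsa had 564 ± 88.8 CPM per kilobase and Fau 158 ± 42.8.

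The 83 members together took up 2.62, 2.13 and 2.13% of all reads in nontransgenic replicates 1 to 3, and 2.54, 3.13 and 2.11% with MYBPC3Δ25bp. With HRCS96A they took up 2.62, 1.96 and 2.07%, and in compound hearts 1.96, 2.14 and 1.99%. MYBPC3Δ25bp replicate 2 was the highest library and all 4 groups overlapped. Group means were 2.29 ± 0.28% (SD, n = 3), 2.59 ± 0.51%, 2.21 ± 0.35% and 2.03 ± 0.10% in the same order. Both subunits followed the same order of groups, with 0.87 ± 0.12, 0.98 ± 0.21, 0.84 ± 0.14 and 0.77 ± 0.05% for Rps genes and 1.42 ± 0.16, 1.61 ± 0.30, 1.38 ± 0.22 and 1.26 ± 0.05% for Rpl genes. Per library the red blood cell markers were highest in 2 of the libraries with high shares, and their part in the shares was not tested.

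The members were short by effective length: their median was 639.7 bases, from 279 in Rps27 to 5082 in Rps15a. The median was 2795 over the 13429 genes with at least 10 reads. Being implied by read counts and FPKM, these lengths need not be those of the mRNAs in the heart. For each library the median deviation of the members from their own means was set beside the trend of all other genes at the members' lengths, both on the log2 CPM scale after scaling by trimmed mean of M values (TMM). The members lay at 0.55 in MYBPC3Δ25bp replicate 2, where the other genes of the same length lay at 0.55. They lay at 0.38 in nontransgenic replicate 1 (other genes 0.39) and at -0.28 in HRCS96A replicate 2 (other genes -0.27). The widest gaps were in nontransgenic replicate 3 (-0.07, other genes -0.16) and compound replicate 1 (-0.24, other genes -0.17). The sign was the same in 12 of 12 libraries. With the length trend subtracted, the SD of the members' median over libraries went from 0.26 to 0.05 and its range from 0.83 to 0.17. The members and the other genes share libraries and scaling, so this is a description.

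**Figure D1:**
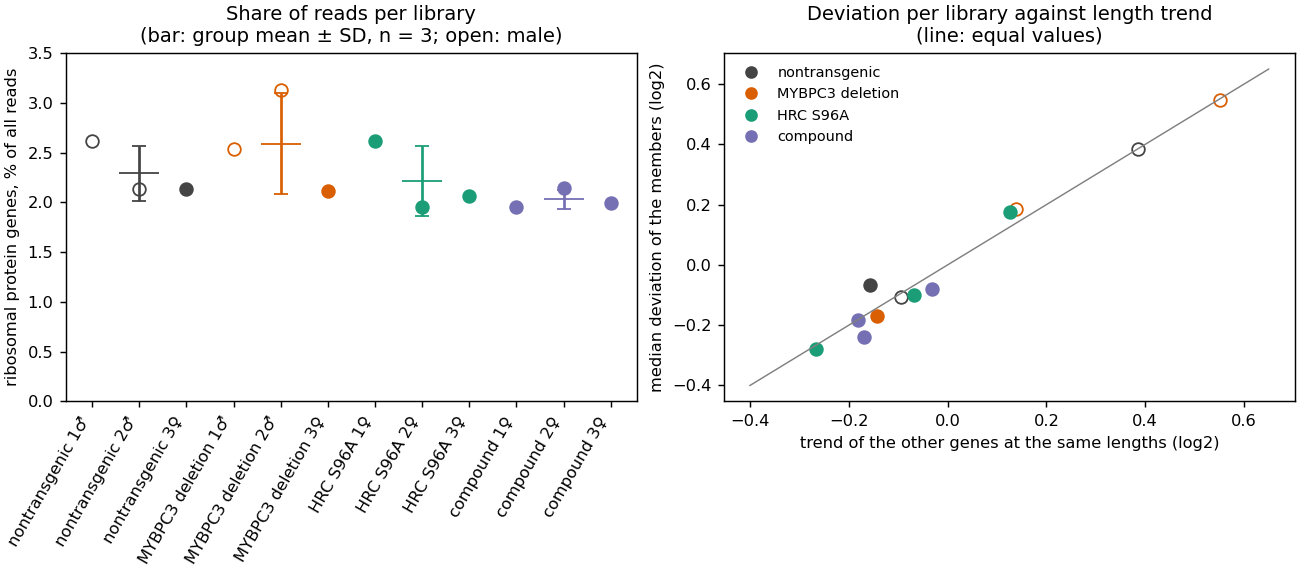
Left, the share of all reads (%) that fell on the 83 ribosomal protein genes in each library, with the group mean ± SD (n = 3); open symbols are males. Right, each library's median log2 deviation of the members against the trend of all other genes at the same effective lengths; the 12 points lie near the line of equal values, from -0.28 to 0.55.

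Most members moved together across libraries, in the direction of other short genes. On the TMM-scaled log2 scale, 46 of 83 were on the same side of their own mean as the members' median in 12 of 12 libraries, and 21 in 11. In MYBPC3Δ25bp replicate 2, 82 of 83 members lay above their own mean, and in HRCS96A replicate 2 only 3 did. The shortest 1377 other genes had median deviations of 0.485 and -0.238 in the same libraries. The members' median comes from these same members, and no such count was made for other genes. Members that followed it least were Rpl3l (4 libraries), Rpl22l1 and Rps6 (7 each), and Rpl3, Rpl29, Rpl34 and Rps2 (8 each). Among members with at least 10 CPM, the coefficient of variation of CPM over the 12 libraries was smallest for Rpl7l1 (6.16%) and Rpl4 (8.70%) and largest for Rps6 (47.0%) and Rpl29 (39.0%).

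**Figure D2:**
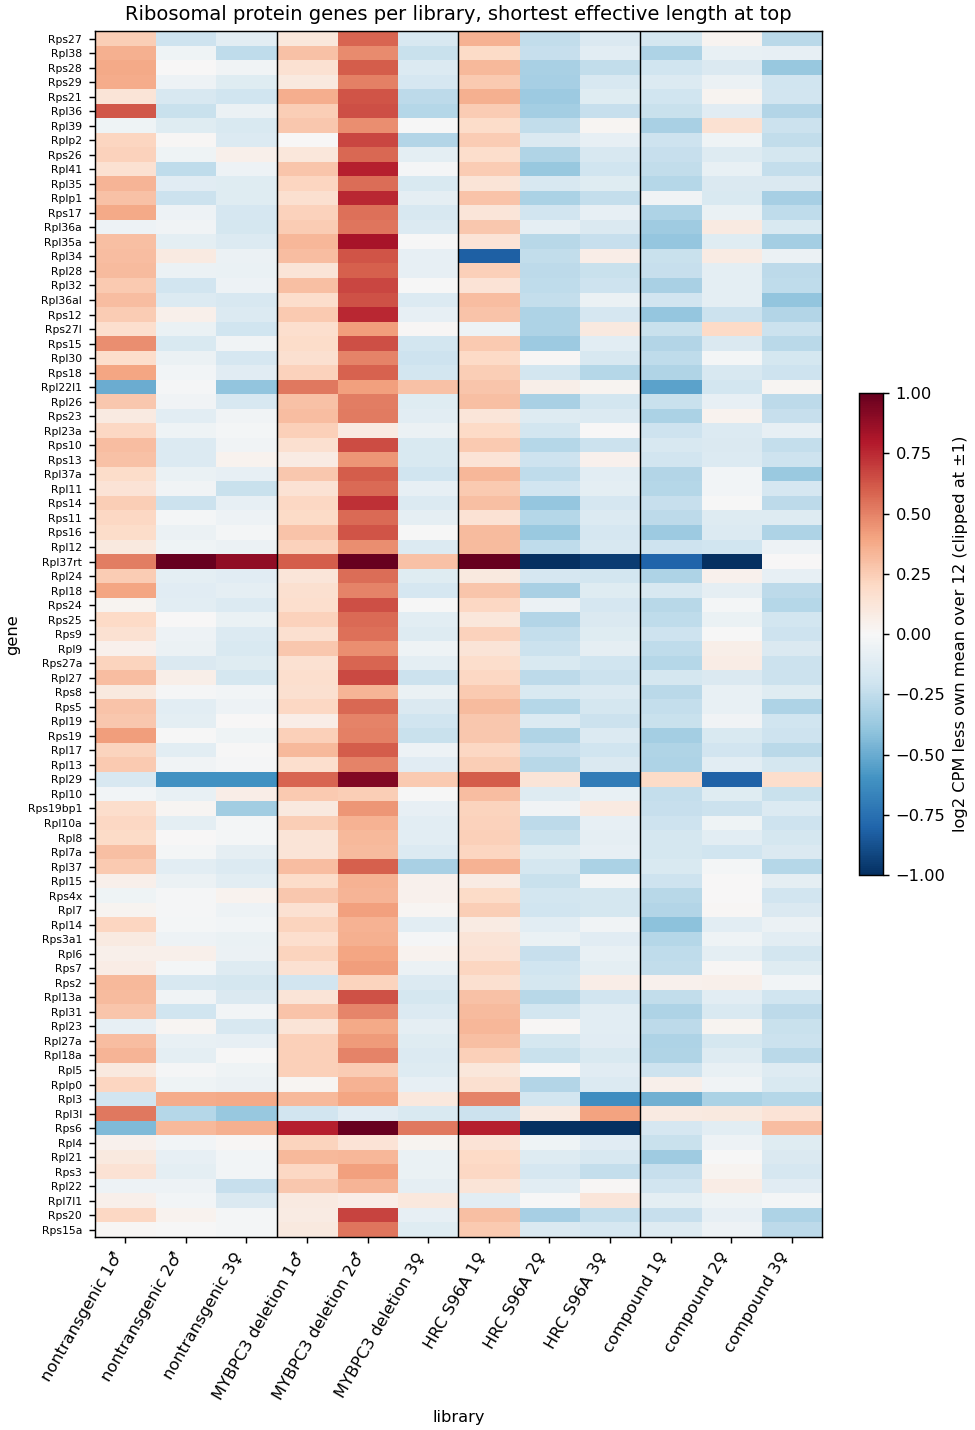
Each row is 1 of the 83 genes, ordered by effective length with the shortest at the top, and each column 1 library; colour is log2 CPM less the gene's own mean over 12 libraries, clipped at ±1. Whole columns share a colour, MYBPC3Δ25bp replicate 2 being the reddest, and the rows of Rpl3, Rpl3l, Rpl29, Rpl34, Rpl37rt and Rps6 break the pattern.

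The comparison of MYBPC3Δ25bp with nontransgenic hearts asks what the deletion alone does. No member passed edgeR's quasi-likelihood test (0 of 83, against 0.0% of 13849 genes, adjusted p under 0.05), nor DESeq2 (0 of the 82 members with an adjusted p, against 0.595%). An unadjusted edgeR p under 0.05 was found for Rpl22l1 and Rpl29, 2 of 83, against 8.16% of all genes. Of the log2 differences 73 of 83 lay above 0 (49.2% of all genes) with a median of 0.12, and the median was -0.01 over all genes. The shortest 1377 of the other genes had a median of 0.11 and 69.8% above 0, and the longest 1377 had -0.13. With the length trend removed the members' median was -0.01, with 40 above 0. In females alone, 1 library against 1, it was -0.09. Leaving out MYBPC3Δ25bp replicate 2 turned it to -0.02, and leaving out nontransgenic replicate 2 to -0.04. CPM did not overlap between the groups, with MYBPC3Δ25bp higher, for 6 of 83 members (7.0% of all genes, and 11.1% of the shortest 1377 other genes): Rpl22l1, Rpl29, Rpl39, Rpl7l1, Rps4x and Rps6. It lay lower without overlap for 0 of 83 (3.17% of all genes, and 1.09% of the shortest 1377 other genes).

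For HRCS96A against nontransgenic hearts, again 0 of 83 members passed edgeR (0.0% of all genes) or DESeq2 (0.181%), and 0 had an unadjusted edgeR p under 0.05 (6.23%). The members' median log2 difference was 0.11, with 76 of 83 above 0 (50.7% of all genes), where the shortest other genes had a median of 0.14. The direction rested on the sex term: without it the median was -0.14, with 8 of 83 above 0. In females alone, against the single nontransgenic female, it was 0.01, and with the length trend removed -0.03. It was 0.00, with 42 above 0, without HRCS96A replicate 1, 0.01 without MYBPC3Δ25bp replicate 3, 0.02 without nontransgenic replicate 2, 0.04 without MYBPC3Δ25bp replicate 2, and 0.34 without nontransgenic replicate 3. Only Rpl22l1 had non-overlapping CPM, higher with HRCS96A (1 of 83, against 6.08% of all genes and 3.12% of the shortest 1377 other genes). Lower without overlap were 0 of 83 (2.35% of all genes, 2.9% of the shortest).

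For compound against nontransgenic hearts, 0 of 83 members passed edgeR (0.0% of all genes) or DESeq2 (0.275%), and Rpl3 alone had an unadjusted edgeR p under 0.05 (6.36% of all genes). The members' median log2 difference was 0.02, with 44 of 83 above 0 (49.7% of all genes). The shortest 1377 other genes had a median of 0.08 and 63.3% above 0. The members' median was -0.23 without the sex term and -0.09 in females alone. With the length trend removed it was -0.07, with 26 of 83 above 0. Leaving out nontransgenic replicate 3, the only female of that group, gave 0.24, and the median turned negative without nontransgenic replicate 2 (-0.06), MYBPC3Δ25bp replicate 2 (-0.05) or 3 (-0.09), or compound replicate 2 (-0.03). Without any model, CPM of the compound libraries lay below all nontransgenic libraries for 27 of 83 members (8.73% of all genes, and 14.2% of the shortest 1377 other genes), among them Rpl3, Rpl4, Rpl10 and Rps16. It lay above them for 0 of 83 (9.12% of all genes, but 1.6% of the shortest 1377 other genes). The compound mice were all female and 2 of the nontransgenic mice male, so in these counts sex and genotype cannot be told apart, and the compound libraries also had atrial marker sums of 131 to 415 CPM against 3042 to 8800, whose part was not tested.

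Compound hearts were compared with MYBPC3Δ25bp hearts to see what HRCS96A adds to the deletion. No member passed edgeR (0 of 83, 0.0% of all genes) or DESeq2 (0.0433%), and Rpl3 alone had an unadjusted edgeR p under 0.05 (5.73%). Without the sex term 15 of 83 had such a p, and with the length trend removed 3 did. The shares of all genes in those fits were not counted, so these counts cannot be read as particular to the members. The median was -0.10, with 11 of 83 above 0 (52.2% of all genes), while the shortest other genes had -0.02. Without the sex term it was -0.38, in females alone -0.00, and with the length trend removed -0.06, with 23 above 0. It was -0.31 without MYBPC3Δ25bp replicate 3, -0.01 without MYBPC3Δ25bp replicate 2 and -0.02 without nontransgenic replicate 2. Leaving out nontransgenic replicate 3 turned it to 0.02, and fitting only these 2 groups to 0.01. CPM lay below all MYBPC3Δ25bp libraries for 31 of 83 members (16.3% of all genes, 27.5% of the shortest). It lay above them for 1, Rpl3l (8.37% of all genes, 0.944% of the shortest). Sex differs between these groups as well, and so do marker sums: fibroblast markers summed to 1182 to 1423 CPM in compound against 1859 to 1984 in MYBPC3Δ25bp libraries, and atrial markers to 131 to 415 against 3249 to 6118. Their part in these counts was not tested.

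In the comparison of compound with HRCS96A hearts, all 6 libraries were female. No member passed edgeR (0 of 83, 0.0% of all genes) or DESeq2 (0.311%), and 0 had an unadjusted edgeR p under 0.05 (6.3%). The median was -0.11, with 7 of 83 above 0 (47.6% of all genes) and a median of -0.06 in the shortest other genes. It was -0.04 with the length trend removed, and it rested on HRCS96A replicate 1, without which it was 0.02, with 47 above 0. That library also had the highest fibroblast marker sum (2508 CPM), whose part was not tested. Rpl22l1, Rpl7a and Rps19bp1 were lower in all compound libraries (3 of 83, against 7.35% of all genes and 6.97% of the shortest 1377 other genes). Higher without overlap were 0 of 83 (4.77% of all genes, 1.45% of the shortest).

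The interaction asks whether the effect of carrying both alterations departs from adding the effects of each on the log2 scale. edgeR called 0 of 83 members (0.0% of all genes). DESeq2 called 0 of the 78 members to which it gave an adjusted p (0.864% of all genes with one), and gave none to Rpl22l1, Rpl37rt, Rps19bp1, Rps27l and Rps6. Rpl22l1 and Rpl29 had an unadjusted edgeR p under 0.05 (2 of 83, against 8.54%). The median was -0.22, with 4 of 83 above 0 (48.4% of all genes). Short genes in general lay there too, with a median of -0.17 and 26.6% above 0 in the shortest other genes against 0.15 in the longest. With the length trend removed the members' median was -0.04 and in females alone -0.02. It was -0.06 without nontransgenic replicate 2, -0.07 without MYBPC3Δ25bp replicate 2 and -0.10 without HRCS96A replicate 1. The comparisons share their nontransgenic and compound libraries, so their medians are not independent of each other.

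**Figure D3:**
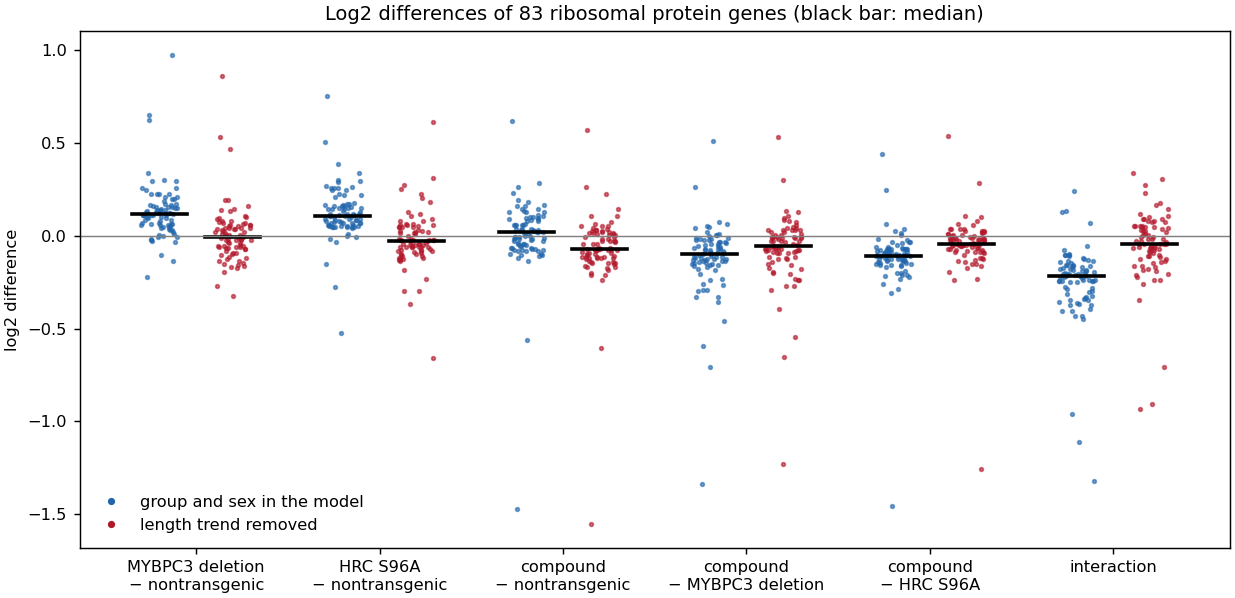
Log2 differences of the 83 members in each of the 6 comparisons, each point a gene and each black bar the median, as fitted with group and sex (blue) and with the length trend removed (red). The medians of the first fit range from -0.22 to 0.12, and those with the trend removed from -0.07 to -0.01.

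Rpl3 and Rpl3l were among the members that followed the members' median least, in 8 and 4 of 12 libraries. Rpl3 (gene 27367; GRCm38.p6 chromosome 15, 80075649 to 80083406, minus strand) encodes a core protein near the peptidyl transferase centre. It had 167, 246 and 248 CPM in nontransgenic hearts, 239, 250.4 and 205 with MYBPC3Δ25bp, 268, 167 and 124 with HRCS96A, and 136, 153 and 156 in compound hearts. All compound libraries were below all nontransgenic and all MYBPC3Δ25bp libraries, and the HRCS96A libraries held both the highest and the lowest value of the 12. The log2 difference of Rpl3 was -0.56 (SE 0.26, edgeR adjusted p = 0.781) between compound and nontransgenic hearts and -0.59 (SE 0.27, edgeR adjusted p = 0.863) between compound and MYBPC3Δ25bp hearts. The first was -0.59 without the sex term and -0.73 in females alone, and moved to -0.17 without nontransgenic replicate 3. The second was -0.41 in females alone, -0.39 without nontransgenic replicate 3 and -0.95 without MYBPC3Δ25bp replicate 3.

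Rpl3l (gene 66211) lies on the plus strand of chromosome 17 in GRCm38.p6, from 24727829 to 24736149. It had 477, 271 and 253 CPM in nontransgenic hearts and 290, 304 and 296 with MYBPC3Δ25bp. It had 284, 351 and 436 CPM with HRCS96A and 351, 353 and 362 in compound hearts. The highest library was nontransgenic replicate 1, and the compound libraries lay within the nontransgenic range but above all MYBPC3Δ25bp libraries. Its log2 difference between compound and MYBPC3Δ25bp hearts was 0.51 (SE 0.30, edgeR adjusted p = 0.898), but 0.28 without the sex term. It was 0.33 without nontransgenic replicate 1 and 0.90 without MYBPC3Δ25bp replicate 3. Per kilobase Rpl3l exceeded its paralog on average, at 257 ± 51.0 against 151 ± 39.7 CPM per kilobase for Rpl3 (SD, n = 12), and made up 50.4 to 77.8% of the pair.

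The ratio of Rpl3l to Rpl3 reads was 2.86, 1.10 and 1.02 in nontransgenic hearts, 1.21, 1.22 and 1.44 with MYBPC3Δ25bp, 1.06, 2.10 and 3.53 with HRCS96A, and 2.57, 2.31 and 2.32 in compound hearts. Compound ratios lay above all MYBPC3Δ25bp ratios, but nontransgenic replicate 1 lay above them. On the log2 scale the compound mean exceeded the nontransgenic mean by 0.70 (exact permutation p = 0.4, two-sided, n = 3 per group, Benjamini-Hochberg p = 0.9 over 3 comparisons). HRCS96A exceeded it by 0.43 (exact permutation p = 0.6, adjusted 0.9) and MYBPC3Δ25bp differed by -0.20 (exact permutation p = 1, adjusted 1). With 3 against 3 the smallest possible p is 0.1. The permutation test took no account of sex. Compound and HRCS96A mice were all female and 2 of the nontransgenic mice male, so there sex and genotype cannot be told apart. The nontransgenic female, replicate 3, had the lowest ratio of the 12 libraries (1.02). The HRCS96A difference was 0.02 without HRCS96A replicate 3 and 0.91 without nontransgenic replicate 1, and the MYBPC3Δ25bp difference turned to 0.28 without nontransgenic replicate 1 and was -0.46 without nontransgenic replicate 3. The compound difference was 1.18 without nontransgenic replicate 1 and 0.43 without nontransgenic replicate 3. The 4 libraries with the lowest atrial marker sums, the compound libraries and HRCS96A replicate 3, had ratios of 2.31 to 3.53, while the 8 others had 1.02 to 2.86; the part of atrial tissue in the ratio was not tested.

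**Figure D4:**
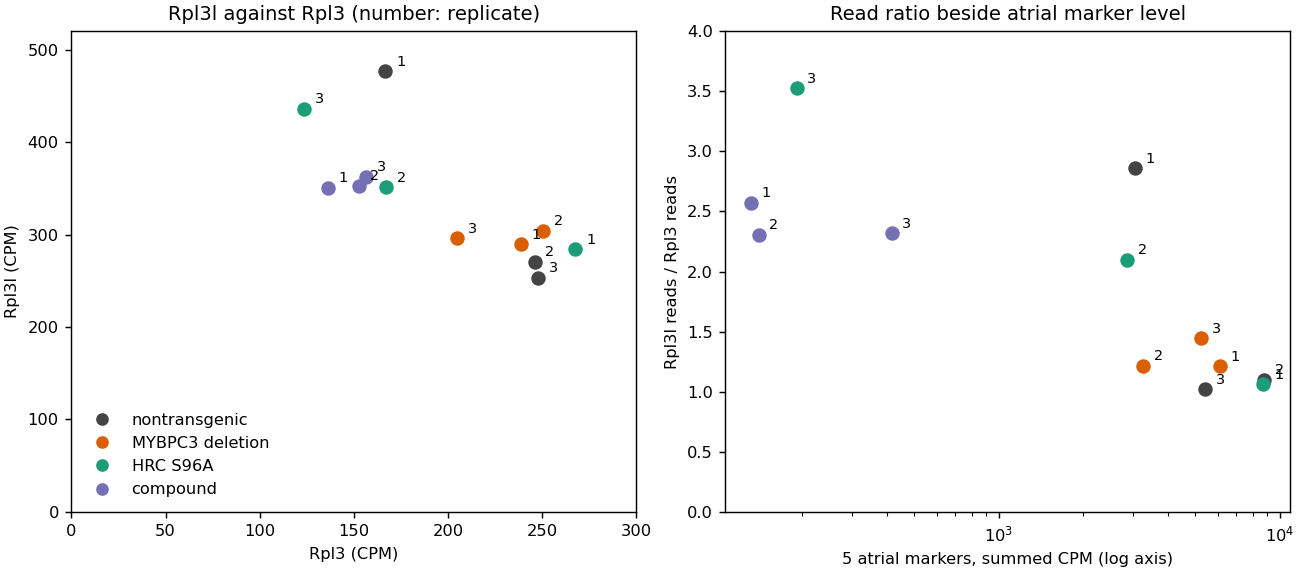
Left, Rpl3l against Rpl3 in CPM, 1 point per library with its replicate number, coloured by group. Right, the ratio of Rpl3l to Rpl3 reads against the summed CPM of 5 atrial markers on a log axis; the compound libraries cluster at 2.31 to 2.57, and HRCS96A libraries range from 1.06 to 3.53.

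The start of Rpl22l1 printed above is an annotated start inside the gene's interval, downstream of its first base. Rpl22l1 (gene 68028, GRCm38.p6 chromosome 3, 28805444 to 28807424, plus strand) encodes a paralog of the RNA-binding large-subunit protein Rpl22. It had 4.67, 6.50 and 5.01 CPM in nontransgenic hearts and 9.48, 8.73 and 8.06 with MYBPC3Δ25bp, followed by 7.95, 6.85 and 6.70 with HRCS96A and 4.53, 5.79 and 6.64 in compound hearts. Both single mutants lay above all nontransgenic and all compound libraries. The log2 difference of Rpl22l1 between MYBPC3Δ25bp and nontransgenic hearts was 0.65 (SE 0.20, edgeR adjusted p = 0.433, DESeq2 adjusted p = 0.179). The interaction for Rpl22l1 was -0.96 (SE 0.28, edgeR adjusted p = 0.509), where DESeq2 gave an unadjusted p of 0.00231 and no adjusted one. Over the alternatives run the first stayed between 0.47 and 0.72 and the second between -1.10 and -0.71. Reads of Rpl22l1 numbered 82 to 154 per library and were whole in every one. Rpl22 itself had 104 ± 7.30 CPM in nontransgenic, 127 ± 19.2 in MYBPC3Δ25bp, 113 ± 9.28 in HRCS96A and 106 ± 10.2 in compound hearts (SD, n = 3), and Rpl22l1 made up 16.6 to 26.8% of the pair per kilobase.

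Rpl29 (gene 19944; GRCm38.p6 chromosome 9, 106421463 to 106431568, plus strand), a surface protein of the large subunit, had the largest spread among the abundant members. It had 257, 189 and 188 CPM in nontransgenic hearts and 430, 544 and 344 with MYBPC3Δ25bp, against 435, 314 and 176 with HRCS96A and 328, 163 and 324 in compound hearts. Every MYBPC3Δ25bp library lay above every nontransgenic one, while the other groups reached from below the nontransgenic range to well above it. The log2 difference of Rpl29 between MYBPC3Δ25bp and nontransgenic hearts was 0.98 (SE 0.33, edgeR adjusted p = 0.51) and the interaction -1.11 (SE 0.47, edgeR adjusted p = 0.573). The read count of Rpl29 was not whole in 11 of 12 libraries, as happens where reads that match several sequences are divided.

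Some other members had a second row of the same annotated protein, and how reads were assigned between such rows is not stated. Rps6 (gene 20104) held 7.21, 12.3 and 12.5 CPM in nontransgenic hearts, 16.8, 19.9 and 14.1 with MYBPC3Δ25bp, 16.7, 3.10 and 2.94 with HRCS96A, and 8.70, 9.10 and 12.1 in compound hearts. A second row annotated as ribosomal protein S6, LOC105244208, held 374 to 519 CPM, so that Rps6 had only 0.72 to 3.69% of their sum. The sum was 431 ± 12.5 CPM in nontransgenic, 496 ± 44.1 in MYBPC3Δ25bp, 450 ± 73.2 in HRCS96A and 410 ± 39.9 in compound hearts (SD, n = 3). MYBPC3Δ25bp libraries were again above all nontransgenic ones, at 451 to 539 against 417 to 440.1 CPM, but less than 1 group SD separated the nearest libraries.

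Rpl34 (gene 68436) had 123, 106 and 95.6 CPM in nontransgenic hearts and 123, 154 and 94.1 with MYBPC3Δ25bp. It had 56.5, 83.7 and 104 CPM with HRCS96A and 85.2, 105 and 95.4 in compound hearts, so that HRCS96A replicate 1 was the lowest library. In that library the pseudogene Rpl34-ps1 held 71.0 CPM, against at most 0.81 in the other 11, and Rpl34 had 44.3% of their sum, against 99.5% or more elsewhere. The summed level of HRCS96A replicate 1 was 128 CPM, the second highest after MYBPC3Δ25bp replicate 2 (155). Rpl23 had 38.7 to 45.0% of the CPM summed over its own row and the 2 rows LOC100044627 and LOC100862455, which are also annotated as L23.

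**Figure D5:**
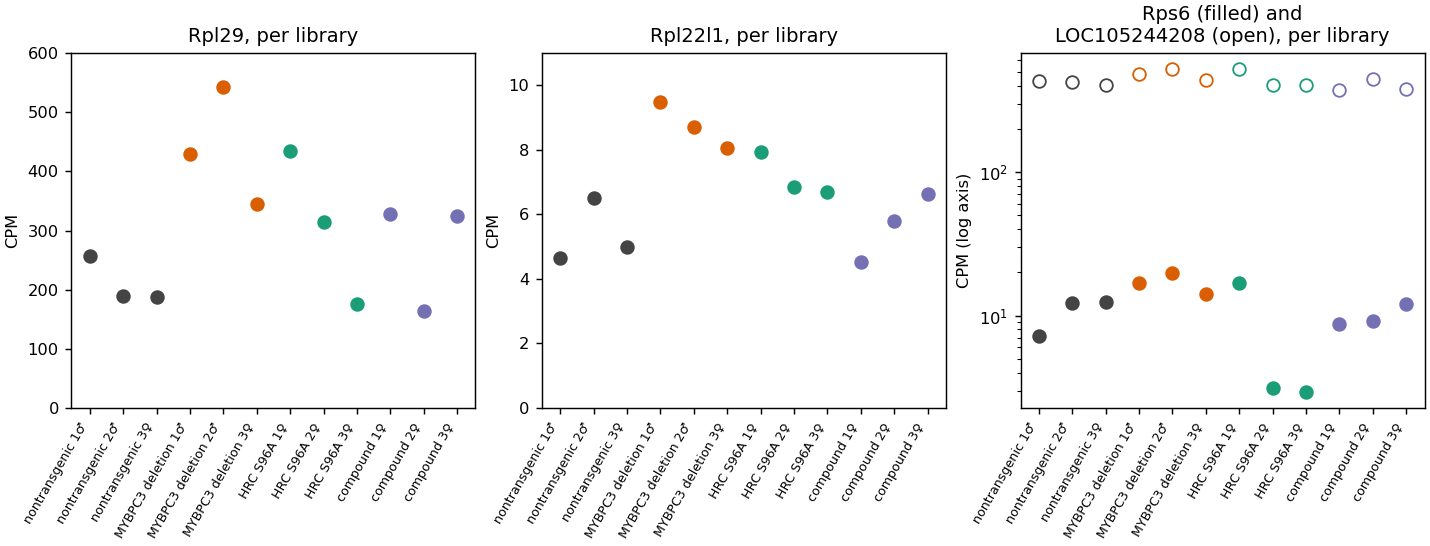
CPM per library of Rpl29 (left), Rpl22l1 (middle), and Rps6 with the row LOC105244208 (right, log axis), coloured by group as in the plots of shares. Rpl22l1 is above the nontransgenic libraries in all MYBPC3Δ25bp and HRCS96A libraries, and Rps6 lies far below LOC105244208 in all 12.

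Among the further paralog pairs, Rps27l, a p53-regulated relative of Rps27, made up 3.94 to 6.00% of its pair per kilobase. Rpl36al, an intronless copy of the X-linked Rpl36a, made up 42.0 to 52.5%. Rpl37rt had at most 1.80% beside Rpl37 and Rpl39l, which is known from testis, at most 0.31% beside Rpl39. Of the stalk genes, Rplp0 had a log2 difference of -0.00 (SE 0.17) with MYBPC3Δ25bp, -0.01 (SE 0.21) with HRCS96A and 0.06 (SE 0.21) in compound hearts, each against nontransgenic hearts. Rplp1 gave 0.23 (SE 0.22), 0.15 (SE 0.27) and 0.08 (SE 0.27) in the same order, and Rplp2 0.06 (SE 0.19), 0.26 (SE 0.23) and 0.11 (SE 0.23). Before the fit, Rplp1 averaged 331 ± 64.3 CPM in nontransgenic, 412 ± 129 in MYBPC3Δ25bp, 316 ± 75.6 in HRCS96A and 293 ± 29.5 in compound hearts (SD, n = 3). Rps2 gave -0.10 (SE 0.19), 0.14 (SE 0.23) and 0.16 (SE 0.23) in the same order.

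The authors' deposited table also compares pairs of groups, and whether sex entered that model is not stated there. Against nontransgenic hearts its median over members was 0.13 with MYBPC3Δ25bp, -0.14 with HRCS96A and -0.23 in compound hearts. The edgeR medians were 0.13, -0.14 and -0.23 without a sex term, and 0.12, 0.11 and 0.02 with it. Between compound and MYBPC3Δ25bp hearts the deposited median was -0.36, and edgeR gave -0.38 without a sex term and -0.10 with it. Between compound and HRCS96A hearts it was -0.10, and -0.11 in both edgeR fits. In the authors' deposited table Rpl3 passed a q-value of 0.05 between nontransgenic and compound hearts (log2 fold change -0.59, q = 0.00441), as 1 of 83 members, against 2.43% of all genes there. In the authors' deposited table Rpl3 (-0.60, q = 0.00154) and Rpl35a, a large-subunit protein (-0.67, q = 0.0475), passed between MYBPC3Δ25bp and compound hearts, 2 of 83 against 4.24% of all genes. In the other 3 comparisons of the authors' deposited table no member passed (0 of 83), against 0.389% of all genes between HRCS96A and compound, 0.0945% between nontransgenic and MYBPC3Δ25bp, and 0.0776% between nontransgenic and HRCS96A hearts. The member with the smallest q-value in those of the authors' deposited table was Rpl29 between nontransgenic and MYBPC3Δ25bp hearts (log2 fold change 0.99, q = 0.0638). In the edgeR fit with a sex term Rpl35a had a log2 difference of -0.33 (SE 0.23, adjusted p = 0.93) between compound and MYBPC3Δ25bp hearts. Rpl35a had 155, 117 and 115 CPM in nontransgenic, 158, 223 and 126 in MYBPC3Δ25bp and 96.5, 116 and 99.6 in compound hearts.

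Genes that build, regulate and use ribosomes were read from lists. Of 62 ribosome biogenesis factors, 0 passed edgeR or DESeq2 in any comparison, and their median log2 difference was -0.02 with MYBPC3Δ25bp, 0.08 with HRCS96A and 0.07 in compound hearts against nontransgenic hearts. Without the sex term the last 2 were 0.01 and -0.00. Of 12 tested genes of RNA polymerase I and its factors, which make ribosomal RNA, 0 passed, with medians of 0.03, 0.05 and 0.21. The 38 translation initiation factors (0.01, 0.00 and 0.00) and 14 elongation and release factors (-0.02, -0.07 and -0.00) also had 0 calls. Without the sex term the initiation factors had medians of 0.02, -0.04 and -0.05 and the elongation and release factors -0.02, -0.12 and -0.06. Of 24 regulators of TOP mRNAs and of mTORC1, 0 passed edgeR and 1, Rptor, which encodes the scaffold of mTORC1, passed DESeq2 in the interaction (0.864% of all genes with an adjusted p), with an edgeR log2 difference of 0.77 (SE 0.20, adjusted p = 0.509). The medians of these regulators were 0.05, -0.03 and 0.02, and 0.05, 0.03 and 0.04 without the sex term. Over all genes these medians compare with -0.01, 0.01 and -0.00. The elongation factor gene Eef1a1 had a log2 difference of -0.65 (SE 0.27, edgeR adjusted p = 0.7) between compound and nontransgenic hearts.

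The mitochondrial ribosome, which translates the mitochondrial genome, has proteins of its own. Its 78 tested genes had median log2 differences of -0.03, 0.06 and 0.06 against nontransgenic hearts with MYBPC3Δ25bp, with HRCS96A and in compound hearts, and 0 passed edgeR or DESeq2. Fitted with no sex term, these values became -0.03, -0.18 and -0.19, so the signs for HRCS96A and compound hearts rested on that term. They are short as well, with a median effective length of 970 bases. In the interaction their median was 0.04, where that of the cytosolic ribosomal protein genes was -0.22, and 0.15 against -0.04 with the length trend removed. Nuclear-encoded respiratory chain and ATP synthase genes (79 tested, median effective length 585 bases) had -0.056, and 0.145 with the trend removed. No test of the difference between these lists was made.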

How the data were processed

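Polyadenylated RNA of 12 hearts was sequenced, per the labels' protocols. The authors deposited 1 table with a read count (not always whole, so taken as an expected count) and an FPKM value per gene and sample, per the file headers, and their own log2 fold change and q-value in 5 comparisons of groups. HISAT, Bowtie2, DESeq2 and the build GRCm38.p6 appear in the submitters' processing notes; which tool counted the reads is not stated. Counts were whole in 94.3% of values (84.7% for members), which fits estimated rather than plain counts, and 12 further per-sample columns were not used. Dates stood in place of 25 symbols, which were restored from gene identifiers.

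Counts were rounded and fitted with edgeR 4.0.16 (R 4.3.3; quasi-likelihood, robust, TMM scaling, minimum count 10) over 13849 genes with group and sex, which left 7 residual degrees of freedom, and Benjamini-Hochberg adjustment over all of them at 0.05. All 83 members passed the filter. The test was checked on simulated counts. It recovered 44 to 67% of 2-fold changes between pairs of groups and 17% in the interaction. For 4-fold changes it recovered 82 to 89% and 70%. CPM are the deposited counts scaled to the same total in every library. Effective length is reads divided by FPKM and by the total. The length trend was a lowess curve (span 0.3) of each library's log2 deviations, taken out as an offset. DESeq2 1.42.0 and the settings given in the closing section were alternatives. The members and lists were chosen with earlier results of these data known. Named genes were paralog pairs, stalk genes, the 5 highest and 5 lowest per kilobase, the 3 highest and 3 lowest log2 differences per comparison, members called, the extremes of variation and length, and Rpsa and Fau. A further gene of this kind is not reported here. Others, such as Rpl35a, Rpl23 and genes of the related lists, were named after their values were seen.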

Additional observations from a re-analysis of the deposited data

How the results depend on the processing

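No ribosomal protein gene was called in any comparison under any alternative run; in the interaction DESeq2 gave 5 members no adjusted p. Genes called over the whole table did move from 0: DESeq2 called 76, 25, 38, 6, 43 and 50 genes for MYBPC3Δ25bp, HRCS96A and compound against nontransgenic, compound against MYBPC3Δ25bp, compound against HRCS96A, and the interaction. With only the groups compared in the fit, edgeR called 1 gene for MYBPC3Δ25bp and 15 for compound against nontransgenic, and 57 for compound against MYBPC3Δ25bp. Leaving out 1 library gave 0 to 8 calls for HRCS96A and 0 to 3 for compound against nontransgenic, 0 to 13 for compound against HRCS96A and 0 to 5 for the interaction. The highest counts came without HRCS96A replicate 1 (8, 4 and 5) or HRCS96A replicate 3 (3 and 13). Deviations of same-numbered samples from their group means had correlations of -0.24 to 0.32, with sex not taken out. The highest was between the females of the nontransgenic and MYBPC3Δ25bp groups. With 3 samples a group, such values cannot exclude a pairing. With the replicate block, edgeR called 1 gene in the interaction, and it changed no call of a member. The members' median for compound against MYBPC3Δ25bp was -0.38 without the sex term. Over leave-one-out fits the medians ranged from -0.04 to 0.22, from 0.00 to 0.34, from -0.09 to 0.24, from -0.31 to 0.02, from -0.18 to 0.02 and from -0.33 to -0.06 in the order above. Without nontransgenic replicate 1 and MYBPC3Δ25bp replicate 2 together, an alternative chosen after seeing the data, they were 0.10, 0.11, 0.01, -0.10, -0.10 and -0.20. With 1 female in each of 2 groups, the sex term is weakly determined, and with 3 samples a group a miss of the threshold does not show that levels were equal.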
